A study of Homo sapiens with 12 samples.

Results

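The genes described here are 10 chaperones and folding enzymes of the endoplasmic reticulum (ER): HSPA5, HSP90B1, HYOU1, DNAJB9, SDF2L1, CALR, CANX, PDIA3, PDIA4 and PDIA6. They were taken by name, out of 57736 genes in the count files, and the counts of all 3′ regions of a gene were summed. The names were chosen from these same libraries, with the responses of the genes to HME and their differences between cell lines already known. Their values under HME and between lines are therefore given as a description and without a p value. In the fits of all libraries, each count of members is set beside the share of all tested genes that passed the same threshold. Counts of genes at an unadjusted p alone, in DESeq2, or with other settings or fewer libraries have no such share unless one is printed. They show only how a count moves with the setting. All 10 genes passed the filter on low counts in both lines.

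HME is a methanol extract of the red seaweed Hypnea musciformis. HepG2 cells come from a human liver carcinoma and Ls174 cells from a human colon cancer, and the labels give both as wild type. Each line was either left without treatment or cultured for 24 h with HME, at 0.7 mg/ml according to the labels (the study's methods give a slightly different concentration), and 3 biological replicates of each of the 4 groups were sequenced, so that there are 12 libraries. Libraries were made from the 3′ ends of polyadenylated RNA, and levels are given as CPM, read counts scaled to a common library total.

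The ER folds the proteins that a cell secretes or places in its membranes. HSPA5 (also known as BiP or GRP78) is the HSP70 of the ER lumen, and HSP90B1 (GRP94) is its HSP90. Calnexin and calreticulin hold glycoproteins through their sugar chains, and the protein disulfide isomerases form and exchange disulfide bonds. When unfolded proteins pile up, 3 sensors, IRE1 (ERN1), PERK (EIF2AK3) and ATF6, start the unfolded protein response (UPR), whose factors ATF6 and XBP1 bind ER stress response elements in the promoters of chaperone genes. Hepatocytes and goblet-type colon cells secrete much protein and depend on this machinery.

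The promoters of these genes are shown because some of them hold a short element known from the promoters of chaperone genes. The choice of members did not use this element. Finding it in such genes is still no independent result, and the shares below are a description. The windows are RefSeq promoters of GRCh38.p14, each from 250 bases before a transcript start to 50 after it, and 9 of the 10 genes were matched by symbol in this table, PDIA3 not. The ER stress response element (ERSE) was searched as CCAAT, 9 bases of any kind and CCACG, and the shorter ERSE-II as ATTGG, 1 base and CCACG, each on both strands. An exact ERSE stood in the windows of 25 of 27305 symbols (0.0916%), among them 5 of these 9 genes (HSPA5, HSP90B1, CALR, CANX and PDIA6). An exact ERSE-II stood in those of 19 symbols (0.0696%), among them HYOU1 and SDF2L1, and no window of a member held both elements. The windows of PDIA4 and DNAJB9 held neither, which says only that these letters are not in these windows. The windows of HSPA5, HSP90B1 and HYOU1 are printed 5′ to 3′ on the strand of the gene, with the outer blocks of each element in capitals. HSPA5 lies on the minus strand at chr9:125241294-125241593, HSP90B1 on the plus strand at chr12:103930160-103930459 and HYOU1 on the minus strand at chr11:119057156-119057455. HSP90B1 carries 2 ERSEs, the one nearer the start on the opposite strand, and HYOU1 carries 2 ERSE-IIs, both on the opposite strand.
HSPA5: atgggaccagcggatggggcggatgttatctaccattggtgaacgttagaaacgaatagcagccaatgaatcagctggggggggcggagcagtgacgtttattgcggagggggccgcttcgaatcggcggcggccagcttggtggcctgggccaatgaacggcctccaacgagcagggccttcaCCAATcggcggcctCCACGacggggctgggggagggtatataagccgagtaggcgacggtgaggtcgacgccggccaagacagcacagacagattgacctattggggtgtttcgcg
HSP90B1: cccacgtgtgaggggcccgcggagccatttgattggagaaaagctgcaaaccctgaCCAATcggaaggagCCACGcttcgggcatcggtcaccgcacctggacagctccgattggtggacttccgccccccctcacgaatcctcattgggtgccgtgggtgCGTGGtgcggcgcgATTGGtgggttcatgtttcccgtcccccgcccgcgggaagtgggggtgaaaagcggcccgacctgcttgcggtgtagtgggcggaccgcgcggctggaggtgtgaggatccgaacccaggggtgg
HYOU1: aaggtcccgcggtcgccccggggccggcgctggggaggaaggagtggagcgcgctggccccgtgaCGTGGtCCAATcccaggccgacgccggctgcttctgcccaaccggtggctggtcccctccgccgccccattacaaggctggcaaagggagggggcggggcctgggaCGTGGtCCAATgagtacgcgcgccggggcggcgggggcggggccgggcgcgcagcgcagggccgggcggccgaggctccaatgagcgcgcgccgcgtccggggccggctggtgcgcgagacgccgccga

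The elements of the other 4 genes are given in the direction of the motif, with the outer blocks in capitals. The element of CANX is one site seen in 3 overlapping windows, since the table lists several starts of this gene.
CALR ERSE: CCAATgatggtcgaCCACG
CANX ERSE: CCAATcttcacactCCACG
PDIA6 ERSE: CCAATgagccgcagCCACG
SDF2L1 ERSE-II: ATTGGtCCACG

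The libraries held 1790841 to 3656662 counts, of which the 10 genes took 0.113 to 0.401%, and a member had between 3 and 7866 counts in a library. The 8 liver markers summed to 18200.4 to 21447.2 CPM in HepG2 controls and 12872.5 to 14057.2 CPM in HepG2 HME libraries. In Ls174 they reached 127.2 CPM in control 3 and 57.9 in HME 1, and lay between 0 and 9.53 in the other 4 libraries. The 8 colon markers summed to 391.9 to 430.2 CPM in Ls174 controls and 273.1 to 338.8 CPM in Ls174 HME libraries, and to 70.4 to 216.7 CPM in HepG2, where MUC2 and GPA33 were at 0. MUC2 was near 0 in Ls174 as well, at 2.17 CPM or less. VIL1 went the other way, with a mean of 136.4 CPM in HepG2 controls and 62.8 CPM in Ls174 controls. Both sums thus moved with treatment in their own line, and their part in the results below was not tested. In each line 1 control library stood apart. HepG2 control 2 had a mean correlation of 0.87 with the other controls, against 0.914 for each of the others, and Ls174 control 1 one of 0.879, against 0.926 and 0.929. Both held fewer counts than the other controls of their line (1874122 and 1977996), and the members' responses are given with and without them.

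Reads of all 10 genes came mostly from the 3′ end. Over all libraries together, a leading region held 86.7 to 100% of a gene's counts. For PDIA3 this share varied between libraries, from 67.8% in HepG2 control 1 to 100% in Ls174 control 1. Of the bases of a leading region, 38.8 to 100% lay in the 3′ untranslated region of GENCODE transcripts on GRCh37. In 8 of the 10 genes the region ran on for 196 or 197 bases past the gene's end. For HSPA5 (ENSG00000044574) the region is chr9:127996935-127998870, for HSP90B1 (ENSG00000166598) chr12:104341441-104341902, and for HYOU1 (ENSG00000149428) chr11:118914703-118916304. Genes on the opposite strand overlap the leading regions of PDIA3 (ELL3 and RP11-296A16.1), PDIA6 (ATP6V1C2), CALR (CTC-425F1.4) and HYOU1 (RP11-110I1.6). The sources used here do not say whether reads were counted by strand, so reads of these partners cannot be told apart from those of the 4 genes.

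More of the 10 genes were called lower with HME in Ls174 cells than in HepG2 cells. Each line was fitted separately, so these counts do not test a difference between the lines. In the direct fit of that difference, given below, 0 members differed after adjustment in edgeR, beside 0.644% of all genes. In Ls174, 8 of the 10 genes were lower at the thresholds of the study, which are a p below 0.05 without adjustment and a change of more than 0.58 on the log2 scale. These were all but DNAJB9 and SDF2L1. Over all tested genes these thresholds called 7.85% lower and 4.11% higher. With p values adjusted by the Benjamini-Hochberg method in edgeR, 5 members were lower (HSP90B1, HSPA5, CALR, CANX and HYOU1), beside 0.866% of all genes, and 0 higher, beside 0.318%. That count of 5 was 8 without control 1, 1 without control 3, and 0 without control 2 or any 1 of the HME libraries. In 7 members every treated library lay below every control, beside 12.2% of all genes, and in 0 above, beside 11.6%. The median log2 fold change was −1.15 over the members and 0 over all genes.

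In HepG2, 4 members were lower at the study's thresholds (HSP90B1, PDIA4, HYOU1 and SDF2L1), beside 10.9% of all genes, and 0 higher, beside 11.3%. After edgeR's adjustment 0 were lower or higher, beside 0.538% and 2.77% of all genes. At an unadjusted p under 0.05 there were 4, and DESeq2 called 2 after adjustment. The shares of all genes under these last rules are not given here, so nothing is read from those counts. In 5 members (those 4 and CALR) the treated libraries lay below all controls, beside 15.3% of all genes, and in 0 above, beside 15.5%. The median was −0.44 over the members and −0.04 over all genes. Scaling by library size alone moved the median of all HepG2 genes to −0.2 and that of the members to −0.57, so that relative to all genes the members stood at −0.37 in place of −0.4. It also moved the share of calls that were lower from 49.1 to 66.8% over all genes. The study chose its dose from growth inhibition, and reported fewer viable and more necrotic cells after 24 h of HME in both lines. Since RNA was taken from whole wells, fewer cells with a transcript and less transcript per cell cannot be told apart in either line.

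**Figure D1:**
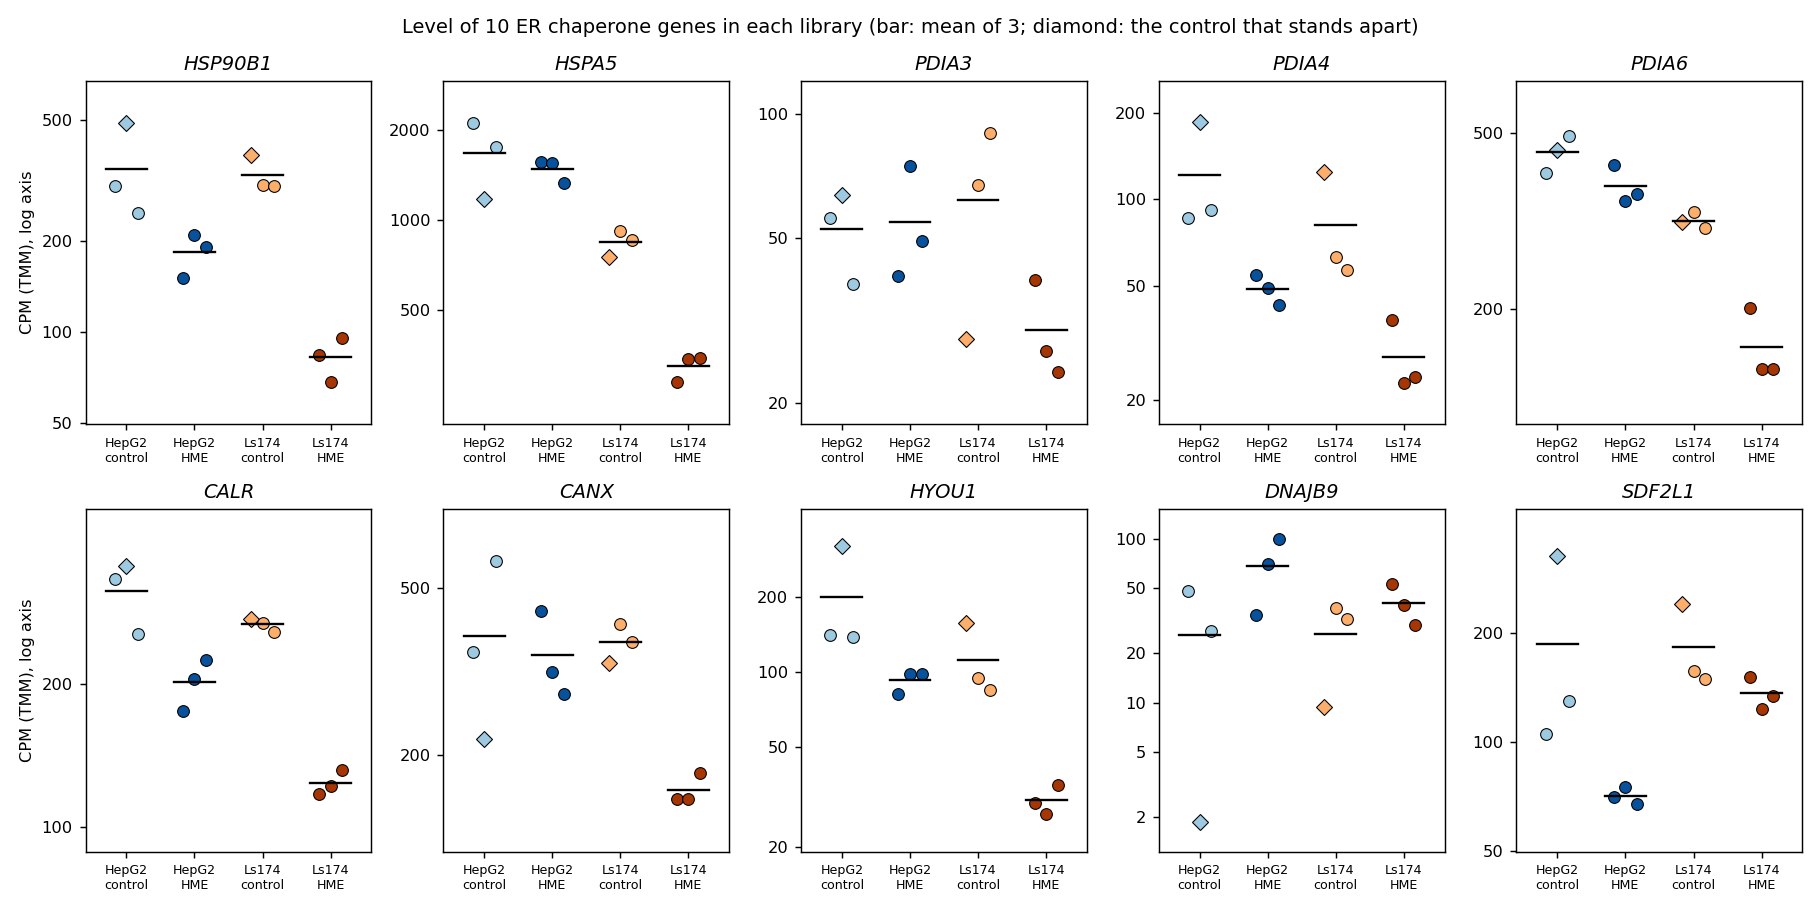
Level of each of the 10 genes in every library as CPM on a log axis, with 3 control and 3 HME libraries per line; bars are means and diamonds mark HepG2 control 2 and Ls174 control 1. In Ls174 the treated libraries lie below all controls in 7 panels, and in HepG2 in 5.

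HSPA5 and HSP90B1, the central chaperones of the ER lumen, were lower in all treated Ls174 libraries. In Ls174 controls 1, 2 and 3, HSPA5 stood at 751, 922 and 859.7 CPM, and in the HME libraries at 286, 342 and 345 CPM. All treated libraries lay well below all controls, with a log2 fold change of −1.38 (SE 0.20), a level 2.61-fold lower (−1.45 without control 1). In HepG2 it stood at 2115, 1179 and 1756 CPM in controls and 1565, 1553 and 1328 CPM with HME. These groups overlapped, since control 2 was the lowest of the 6 libraries, and the log2 fold change was −0.16 (SE 0.32), −0.32 (SE 0.24) without control 2 and 0.02 without control 1. HSPA5 was thus at 1683 ± 472 CPM (mean ± SD, n = 3) in HepG2 controls and at 325 ± 33.1 in treated Ls174, the highest and lowest of the 4 groups.

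HSP90B1 had the largest decrease of the members in Ls174. Its levels were 384, 306 and 303 CPM in Ls174 controls and 83.8, 68.3 and 95.3 CPM with HME, a log2 fold change of −2.01 (SE 0.22) and a 4.03-fold lower level (−1.88 without control 1). In HepG2 they were 303, 489 and 248 CPM in controls and 150.0, 209 and 191 CPM with HME. The groups did not overlap in either line. The HepG2 log2 fold change was −0.93 (SE 0.37), but −0.52 (SE 0.24) and no longer past the study's thresholds without control 2, whose level was 1.78 times the mean of the other controls. In HepG2 the call for HSP90B1 was also lost when any 1 of the HME libraries was left out.

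HYOU1 (GRP170) releases nucleotide from HSPA5 and so drives its cycle, and it followed HSP90B1 closely. Its levels in Ls174 were 157, 94.4 and 85.0 CPM in controls and 29.9, 27.0 and 35.2 CPM with HME, a log2 fold change of −1.87 (SE 0.29), or −1.54 (SE 0.17) without control 1. In HepG2 they were 141, 318 and 138 CPM in controls and 81.5, 98.6 and 97.9 CPM with HME. Treated libraries were below all controls in both lines. In HepG2 the log2 fold change of −1.12 (SE 0.41) became −0.52 (SE 0.22) without control 2, and the call was lost, as it was without any 1 of the HME libraries.

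DNAJB9 (ERdj4), a J-domain cofactor that recruits HSPA5 to IRE1 and to misfolded substrates, was the only member with a positive log2 fold change in both lines, and it passed no threshold in either. In HepG2 its levels were 47.9, 1.87 and 27.5 CPM in controls and 34.4, 70.0 and 100.3 CPM with HME. The control value of 1.87 CPM rests on 3 counts, and the groups overlapped. The log2 fold change was 1.41 (SE 0.74), and 0.91 (SE 0.43) without control 2. In Ls174 the levels were 9.34, 37.6 and 32.3 CPM in controls and 52.8, 39.5 and 29.9 CPM with HME, again overlapping, with a log2 fold change of 0.60 (SE 0.44), or 0.23 (SE 0.22) without control 1.

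SDF2L1, which keeps J-domain cofactors and their clients from aggregating, had a larger decrease in HepG2 than in Ls174. Its HepG2 levels were 105, 326 and 129.7 CPM in controls and 70.4, 75.3 and 67.3 CPM with HME. All treated libraries lay below all controls, but control 2 was 2.77 times the mean of the others. The log2 fold change of −1.41 (SE 0.46) became −0.65 (SE 0.22) without control 2 and still passed the study's thresholds. In Ls174 the levels were 241, 157 and 149.5 CPM in controls and 151, 123 and 134 CPM with HME. These groups overlapped, with a log2 fold change of −0.43 (SE 0.24), or −0.17 (SE 0.16) without control 1.

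Of the 2 lectin chaperones, the soluble calreticulin (CALR) was lower in treated libraries of both lines. Its levels were 274, 269 and 258 CPM in Ls174 controls and 117, 122 and 132 CPM with HME, a log2 fold change of −1.11 (SE 0.18), or −1.08 without control 1. The controls of Ls174 were close together, at 267 ± 8.48 CPM, and so were the treated libraries, at 124 ± 7.52 (SD, n = 3 each). In HepG2 they were 333, 354 and 255 CPM in controls and 176, 205 and 225 CPM with HME. The groups did not overlap, but the log2 fold change of −0.63 (SE 0.31), or −0.47 (SE 0.24) without control 2, did not pass the study's thresholds.

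The membrane-bound calnexin (CANX) was lower in all treated Ls174 libraries, while in HepG2 its groups overlapped. Its levels in Ls174 were 331.5, 410.4 and 372.5 CPM in controls and 157, 157 and 181 CPM with HME, with a log2 fold change of −1.18 (SE 0.19), or −1.24 without control 1. In HepG2 controls it ranged from 218 CPM in control 2 through 352 to 579.5 CPM, and in HME libraries from 279 through 315 to 442 CPM. The log2 fold change was −0.12 (SE 0.39), and it moved to −0.36 without control 2 and to 0.28 without control 3.

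Of the disulfide isomerases, PDIA4 (ERp72), which binds HSPA5 complexes, was lower in treated libraries of both lines. In HepG2 it stood at 86.0, 186 and 92.1 CPM in controls and 54.6, 49.1 and 42.6 CPM with HME, and in Ls174 at 124, 62.7 and 56.6 CPM in controls and 37.9, 22.8 and 24.0 CPM with HME. In neither line did the groups overlap. The log2 fold changes were −1.32 (SE 0.40) in HepG2 and −1.53 (SE 0.36) in Ls174, and −0.80 (SE 0.23) and −1.08 (SE 0.21) without the control that stood apart, past the study's thresholds each time.

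PDIA6 (P5) works beside HSPA5 and also turns IRE1 off. Its levels were 314, 331 and 305 CPM in Ls174 controls and 201.5, 146 and 146 CPM with HME, with no overlap and a log2 fold change of −0.95 (SE 0.20), or −0.94 without control 1. In HepG2 they were 407, 457 and 494 CPM in controls and 423, 351 and 365 CPM with HME, which overlapped, with a log2 fold change of −0.25 (SE 0.29), or −0.18 without control 2.

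PDIA3 (ERp57) is the isomerase that works with calnexin and calreticulin on glycoproteins. Its levels were low and scattered, at 28.5, 67.4 and 89.9 CPM in Ls174 controls and 39.7, 26.7 and 23.7 CPM with HME. Control 1 lay among the treated libraries, and the log2 fold change was −1.06 (SE 0.40), or −1.39 (SE 0.21) without it. The call was lost without HME 2, HME 3, control 2 or control 3. In HepG2 the levels were 55.9, 63.5 and 38.8 CPM in controls and 40.4, 74.6 and 49.2 CPM with HME, which overlapped, with a log2 fold change of 0.06 (SE 0.36), which moved to 0.28 without control 2 and to −0.22 without HME 2.

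**Figure D2:**
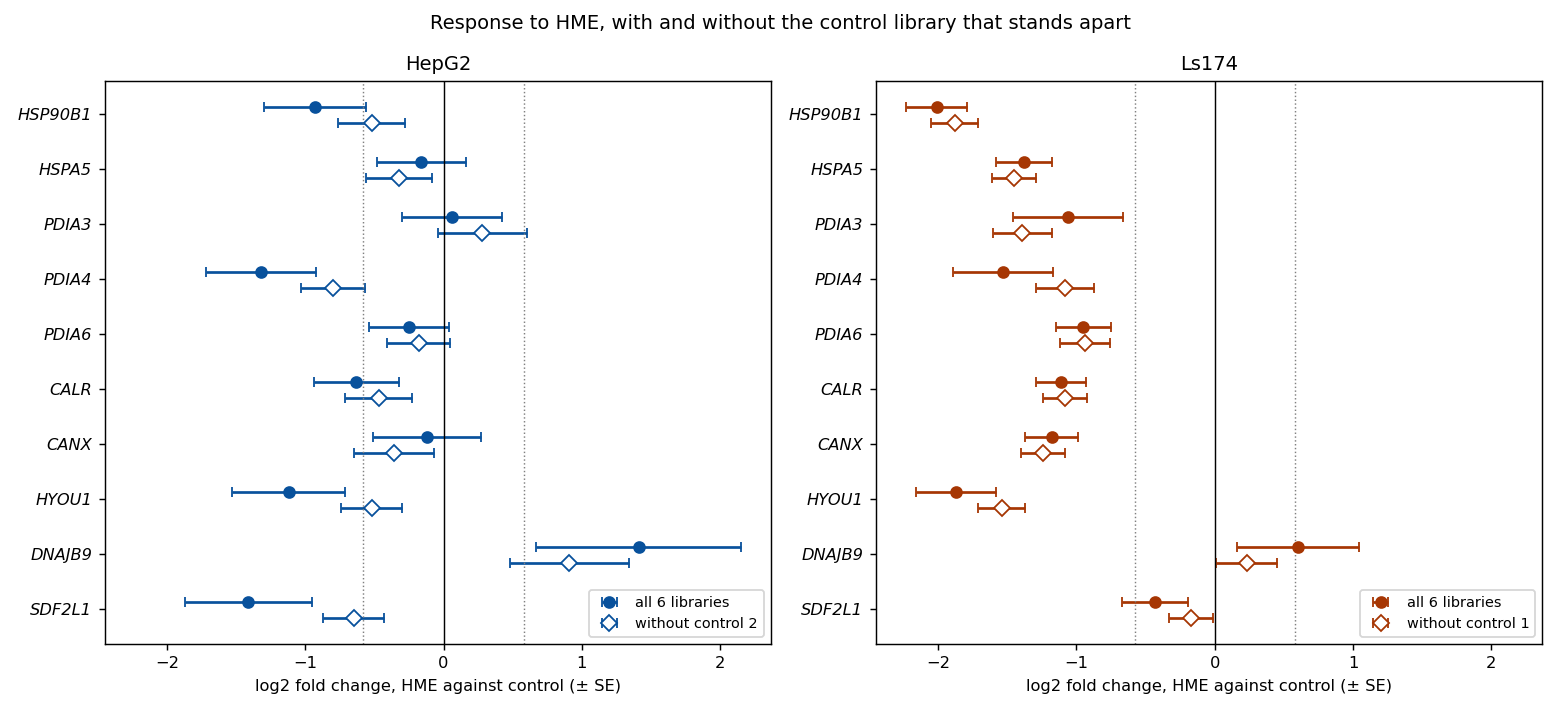
Log2 fold change of each gene, HME against control, with its SE, from all 6 libraries of a line (circles) and without the control that stood apart (diamonds); dotted lines mark 0.58 in both directions. In HepG2 the 4 called decreases shrink without control 2, while in Ls174 HSP90B1 stays near −2 (−2.01 and −1.88).

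In the controls that stood apart, most members kept the same place relative to the other controls in both lines. How often this holds over all genes was not counted, so nothing is read from it. HSP90B1, PDIA4, HYOU1, SDF2L1 and CALR were above both other controls in HepG2 control 2 and again in Ls174 control 1. HSPA5, CANX and DNAJB9 were below both other controls in each, PDIA6 was between them in each, and only PDIA3 was above in HepG2 and below in Ls174. The excess over the other controls was 2.09-fold for PDIA4 in both lines, 2.28-fold and 1.75-fold for HYOU1, and 2.77-fold and 1.57-fold for SDF2L1 in HepG2 and Ls174. It was smaller for HSP90B1 (1.78-fold and 1.26-fold) and for CALR (1.21-fold and 1.04-fold). Without these controls, 2 HepG2 members remained lower at the study's thresholds (PDIA4 and SDF2L1), beside 10.1% of all genes. In Ls174 there were 8, beside 9.23%, and the same 8 were lower after adjustment in edgeR, beside 5.33% of all genes.

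**Figure D3:**
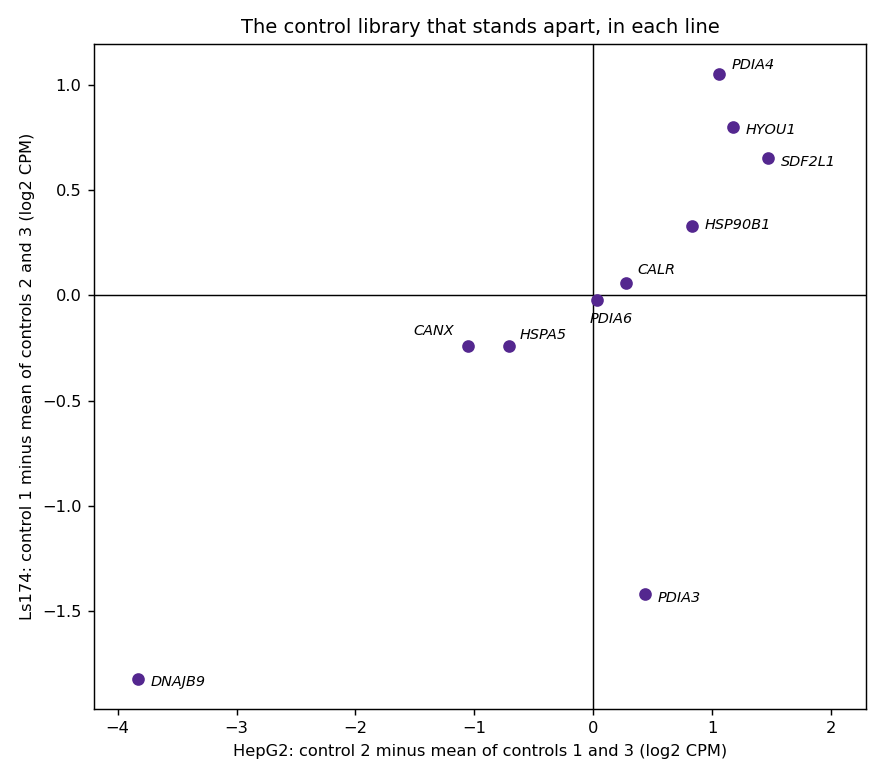
Log2 CPM of each gene in the control that stood apart minus the mean of the other 2 controls, for HepG2 (horizontal) and Ls174 (vertical). SDF2L1, HYOU1, PDIA4, HSP90B1 and CALR are above 0 in both lines, HSPA5, CANX and DNAJB9 below 0 in both, and PDIA3 is above 0 in HepG2 only.

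The difference of the response between lines, the HepG2 log2 fold change minus that of Ls174, was fitted on all 12 libraries. It was positive for 9 of the 10 genes, with a median of 0.76 over the members and −0.04 over all genes. At the study's thresholds 3 members differed, HSPA5 by 1.20 (SE 0.39), HSP90B1 by 1.08 (SE 0.41) and CANX by 1.02 (SE 0.46), beside 13.2% of all genes. After adjustment in edgeR 0 members differed, beside 0.644% of all genes, with 3 at an unadjusted p under 0.05 and 1 in DESeq2 after adjustment. The count at the study's thresholds was 5 without HepG2 control 2 or without Ls174 control 1, and 1 without HepG2 HME 2 or without Ls174 HME 2. For the unadjusted p, DESeq2 and these smaller fits the shares of all genes are not given here. With scaling by library size alone, the share of all calls that were negative was 53.7% in place of 43.7%. SDF2L1 was the exception in sign, at −0.97 (SE 0.52), with a range of −1.33 to −0.32 when a library was left out and the value nearest to 0 without HepG2 control 2. PDIA4 had a difference of 0.21 (SE 0.53), which ran from −0.22 without Ls174 control 1 to 0.64 without HepG2 control 2. The call for HSPA5 held when any 1 library was left out. That for HSP90B1 was lost without HepG2 HME 2 (0.96), HepG2 control 1 (0.93) or Ls174 HME 2 (0.97), and that for CANX without any of 9 libraries, at 0.73 to 1.09.

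Before treatment, HSPA5 was higher in all HepG2 controls than in any Ls174 control. Untreated HepG2 cells had 1683 ± 472 CPM and untreated Ls174 cells 844 ± 86.3 CPM (SD, n = 3 each), a log2 difference of 1.00 (SE 0.28) that lay between 0.83 and 1.23 over 19 alternatives. These are the control libraries of the responses above, and differences between lines were known when the genes were chosen, so the values are a description. HSPA5 was the 1 member past an adjusted p of 0.05 in edgeR, beside 35.5% of all genes, so nothing is read from this count. HYOU1 stood at 0.83 (SE 0.35), PDIA4 at 0.58 (SE 0.37) and PDIA6 at 0.51 (SE 0.24), and the remaining 6 lay between −0.24 and 0.23. Without HepG2 control 2, HYOU1 came to 0.36 and SDF2L1 changed from 0.03 to −0.60. Without Ls174 control 1, 3 members passed the adjusted threshold, and without HepG2 control 1 or 3 there were 2. The shares of all genes in those fits are not given here, so nothing is read from these counts either. Scaling by library size alone moved the median of all genes from 0.02 to −0.15 and that of the members from 0.15 to −0.03.

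Around these genes, the rest of the folding machinery was described with lists drawn up from general knowledge, but with earlier results of these data known, so that the adjusted p values of their genes are not independent evidence. Of 25 other ER folding genes (isomerases, oxidases, J-domain cofactors, prolyl isomerases and glycoprotein sensors), 24 were tested in Ls174, of which 22 had a negative log2 fold change, with a median of −0.64. At the study's thresholds 9 were lower and 0 higher, beside 7.85% and 4.11% of all genes, and 1 was lower after adjustment, beside 0.866%. This was UGGT1, which recognises misfolded glycoproteins and returns them to calnexin and calreticulin. It stood at 107.7, 37.6 and 50.4 CPM in Ls174 controls and 11.3, 15.6 and 10.8 CPM with HME, with no overlap, a log2 fold change of −2.37 (SE 0.42) and an adjusted p of 0.04 in edgeR. That adjusted p rose above 0.05 in 6 of 15 alternatives, among them leaving out control 2 (0.0956), control 3 (0.079) or any 1 of the HME libraries (0.223 to 0.274). Without control 1, the highest of the controls, the log2 fold change was −1.8 (adjusted p = 0.000154 in edgeR). Among the genes past the study's thresholds, the next largest decreases were those of DNAJC3 (p58IPK), a J-domain cofactor of HSPA5, at −1.11 (SE 0.25), and of ERP44, which retains proteins in the ER, at −0.92 (SE 0.24). ERO1LB, an ER oxidase that did not pass them, had −1.45 (SE 0.64), and −0.54 without control 1. In HepG2, 23 of the list were tested, with a list median of −0.09. At the study's thresholds 1 was lower and 0 higher, beside 10.9% and 11.3% of all genes, so nothing is read from these counts. After adjustment in edgeR 0 were lower or higher, beside 0.538% and 2.77% of all genes. The 1 lower gene was UGGT1, at −1.26 (SE 0.42), or −0.68 without control 2. At an unadjusted p under 0.05 there was 1 in HepG2.

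Among the UPR sensors and factors, most changes in HepG2 were increases. Of 15 genes, 7 were higher and 1 lower at the study's thresholds, beside 11.3% and 10.9% of all genes, and 4 were higher after adjustment, beside 2.77%. The list median was 0.45. ATF3, a stress-induced transcription factor, stood at 5.92, 1.87 and 5.25 CPM in HepG2 controls and 258.8, 170.0 and 215.6 CPM with HME. Every treated library was far above every control, with a log2 fold change of 5.57 (SE 0.45) and an adjusted p of 0.00062 in edgeR. PPP1R15A (GADD34), which restores translation after stress, was higher by 3.83 (SE 0.82, adjusted p = 0.0364 in edgeR), ERN1 by 1.5 (SE 0.33, adjusted p = 0.0402) and TRIB3, a target of ATF4 and CHOP, by 1.37 (SE 0.29, adjusted p = 0.0343). The HepG2 controls of PPP1R15A were low, at 4.84, 0 and 15.4 CPM, against 156.7, 67.9 and 66.7 CPM with HME. Without control 2, which had 0 counts of PPP1R15A, its log2 fold change was 3.38. The ATF3 call held when any library was left out, whereas those for PPP1R15A, ERN1 and TRIB3 were lost without any 1 of the HME libraries or without control 1 (adjusted p in edgeR up to 0.128, 0.174 and 0.16). ERN1 and TRIB3 also lost theirs without control 3 and with scaling by library size alone, and ERN1 in 1 fit of all 12 libraries (0.0519), so that the ERN1 call held in 7 and the TRIB3 call in 8 of 15 alternatives. CREB3L3 (1.44, SE 0.42), ATF4 (1.27, SE 0.35) and DDIT3, the gene of CHOP (1.15, SE 0.39), were also higher in HepG2 at the study's thresholds. They did not pass after adjustment in edgeR. CREB3L2, a membrane-bound factor related to ATF6, was lower at −0.82 (SE 0.36), but at −0.58 did not pass the study's thresholds without control 2.

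In Ls174, 14 of the list were tested, with 3 higher and 3 lower at the study's thresholds (4.11% and 7.85% of all genes), 0 adjusted calls in edgeR, 6 at an unadjusted p under 0.05 and a median of 0.11. PPP1R15A (1.14, SE 0.45), TRIB3 (1.12, SE 0.25) and ATF4 (0.99, SE 0.29) were higher. Lower were the sensors EIF2AK3 (−1.27, SE 0.31) and ATF6 (−0.66, SE 0.27), and MBTPS1 (−0.86, SE 0.27), the protease that first cuts ATF6. XBP1, whose own promoter window holds an ERSE, had log2 fold changes of 0.32 (SE 0.36) in HepG2 and 0.60 (SE 0.38) in Ls174 and passed neither threshold.

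Of 18 genes for ER-associated degradation (ERAD), which exports misfolded proteins to the proteasome, 17 were tested in each line. In HepG2, 2 were higher and 2 lower at the study's thresholds, close to the shares over all genes (11.3% and 10.9%), with 0 adjusted calls in edgeR and 4 at an unadjusted p under 0.05. In Ls174, 1 was higher and 3 lower, beside 4.11% and 7.85% of all genes, again with 0 adjusted calls and 5 at an unadjusted p under 0.05. The medians were 0.02 and 0.06. HERPUD1, a scaffold of the export complex, was higher in both lines, at 1.19 (SE 0.33) and 0.79 (SE 0.25), with treated libraries at 188 to 276 CPM in HepG2 and 119 to 148 CPM in Ls174. Controls were at 82.4 to 133 CPM and 53.6 to 101 CPM, so that neither line overlapped. SEL1L, the adaptor of the same complex, was lower in both, at −1.0 (SE 0.36) and −1.74 (SE 0.46), and at −0.62 and −1.15 without the controls that stood apart. VIMP was also higher in HepG2 at 0.97 (SE 0.39) and UFD1L lower at −0.96 (SE 0.31), and in Ls174 EDEM3 (−1.16, SE 0.32), which trims mannose from glycoproteins, and OS9 (−0.87, SE 0.34), which binds the trimmed sugars, were lower. HERPUD1 carries an ERSE-II, as HYOU1 and SDF2L1 do, but its log2 fold changes were positive in both lines and theirs negative. CRELD2 of the folding list carries an ERSE. Its log2 fold changes were −0.26 (SE 0.33) in HepG2 and −0.12 (SE 0.21) in Ls174, and it passed no threshold. The part of these elements in the responses was not tested.

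**Figure D4:**
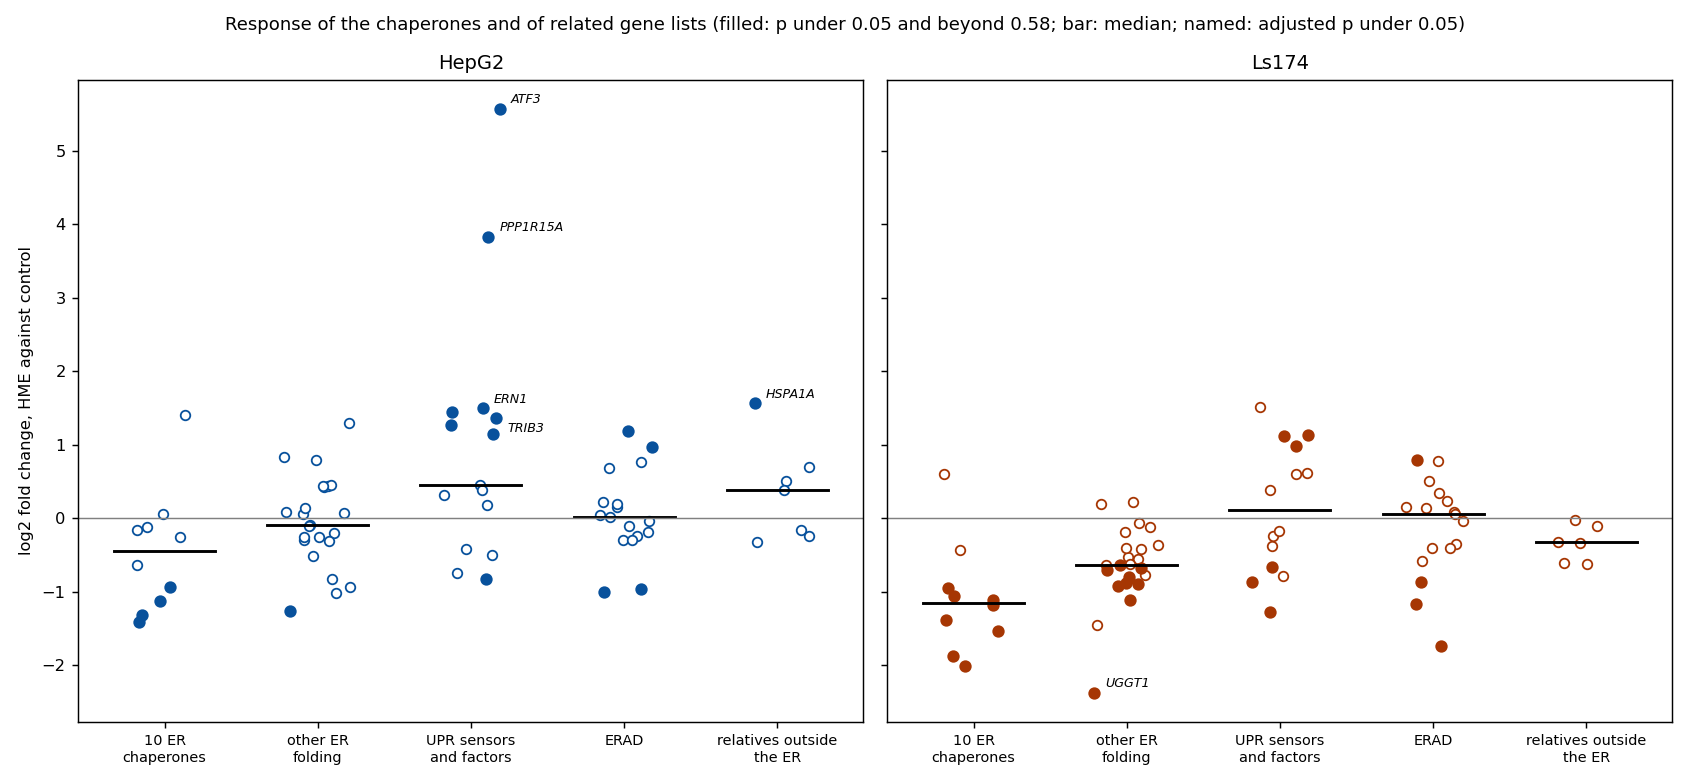
Log2 fold change, HME against control, of every tested gene of the 10 chaperones, of 3 related lists and of relatives outside the ER, by line; filled points passed the study's thresholds, bars are medians, and names mark genes of the lists with an adjusted p under 0.05. In Ls174 the medians are −1.15 for the chaperones, −0.64 for other folding genes and 0.11 for UPR genes.

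The cytosolic and mitochondrial relatives had smaller changes in Ls174 than HSP90B1 and HSPA5. HSP90AA1 and HSP90AB1 are the cytosolic HSP90s, TRAP1 the mitochondrial one, HSPA8 the constitutive cytosolic HSP70 and HSPA9 the mitochondrial one. In Ls174 0 of 6 tested relatives passed either threshold (0 at an unadjusted p under 0.05). Since the study's thresholds called 7.85% of all genes lower and 4.11% higher, nothing is read from this count. All 6 had negative log2 fold changes, of −0.62 to −0.02, where HSP90B1 and HSPA5 had −2.01 and −1.38. In HepG2, HSPA1A was higher by 1.57 (SE 0.35, adjusted p = 0.04 in edgeR), at 38.5, 19.9 and 42.4 CPM in controls and 92.2, 88.7 and 116.5 CPM with HME. The call was lost in 7 of 15 alternatives, among them leaving out control 1, control 3 or any 1 of the HME libraries. HSPA1A and HSPA1B are near-identical copies between which reads can be split, and HSPA1A was at 0 to 1.78 CPM in all Ls174 libraries while HSPA1B was at 32.0 to 70.4 CPM there, so their separate values are uncertain. The other relatives lay between −0.32 and 0.70 in HepG2.

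HSP90B1 was the one member in which more than 5% of counts came from the next most used 3′ region, so its use of 3′ ends could be compared. The leading region held 82.1, 94.5 and 87.1% of its counts in HepG2 controls and 86.5, 81.0 and 87.1% with HME. In Ls174 it held 95.5, 88.6 and 84.0% in controls and 86.1, 87.0 and 84.8% with HME. The groups overlapped in both lines, and the means differed by −3.04 and −3.4 percentage points (exact permutation test, two-sided, p = 0.4 and 0.5, n = 3 against 3), where 0.1 is the smallest p the design allows. The highest share in each line was that of the control that stood apart.

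After each line was centred, the members' log2 CPM was correlated over the 12 libraries as a description, since libraries share treatment, depth and line. HSP90B1 and HYOU1 had r = 0.98, HSP90B1 and CALR 0.97 and HYOU1 and PDIA4 0.94, while HSPA5 was closest to CANX (0.88). DNAJB9 and SDF2L1 had r = −0.93. The controls that stood apart are part of all these correlations. Against the other controls, DNAJB9 and SDF2L1 lay at −3.83 and 1.47 (log2) in HepG2 control 2 and at −1.82 and 0.65 in Ls174 control 1. Measured against the mean of the members, which includes each of them, r was 0.94 for HSP90B1, 0.933 for CALR and 0.929 for PDIA6, and 0.421 for SDF2L1 and −0.295 for DNAJB9. The genes outside the list most like this mean were TM9SF3 (0.948), AC008865.1 (0.946), SLC5A1 (0.937), SLC12A2, LNPEP and HS2ST1 (0.936 each), TTYH3 (0.931) and SMOC2 (0.93), out of 13040 tested. Of these, SLC5A1 and SMOC2 did not pass the filter on low counts in HepG2, so their likeness in that line is not shown.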

How the data were processed

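RNA of HepG2 and Ls174 cells, 3 control and 3 HME libraries per line, was sequenced by the authors with a 3′ mRNA kit on an Ion Proton. Per the study's methods, reads were aligned with Hisat2 to hg19 and passed to metaseqR2; the submitters' processing notes also name Bowtie2 and Trimmomatic, and versions are not given in the sources used here. The deposited files hold raw counts per 3′ region, which were summed per gene (57736 genes, 0 rows without a gene). Totals were 1790841 to 3656662 counts, and members had as few as 3 counts in a library, which limits their precision.

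The members and lists were chosen with earlier results of these data known. All members were named, with list genes past an adjusted p of 0.05, up to 3 higher and 3 lower genes per list and line past the study's thresholds, all relatives, and the 8 genes most like the members' mean. The other UPR genes higher in HepG2 at the study's thresholds were also named. Each line's 6 libraries were fitted in edgeR 4.0.16 (R 4.3.3; TMM, filterByExpr, quasi-likelihood F test, two-sided, Benjamini-Hochberg adjustment), and the differences between lines on all 12. The study called genes with a binomial test, and edgeR was used in its place so that replicate spread enters the p value. SE is the log2 fold change over the square root of F. CPM come from a joint TMM scaling of 12 libraries. Replicates are biological per the study, and those of a group differed by more than sampling noise (chi-square per degree of freedom 4.859 to 61.57). Alternatives were DESeq2 1.42.0, 2 other scalings, 2 filters, leading regions only, 1 fit of all libraries, a replicate block, leaving out each library and, added after the data were seen, leaving out the control that stood apart and a GC offset per library. The procedure was tested on simulated data. For distances and correlations, 2 counts were added as a prior before taking log2 CPM. Promoters are RefSeq windows (GRCh38.p14), and region annotation is GENCODE v44 lifted to GRCh37. The study's proteome, protein assays and enrichment analyses were not analysed here.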

Additional observations from a re-analysis of the deposited data

Results flagged for a closer look

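The response of ATF3 differed between the lines in the fit across all 12 libraries, by 4.03 on the log2 scale (SE 0.80, adjusted p = 0.0339 in edgeR). HepG2 treated libraries stood at 170.0 to 258.8 CPM against 1.87 to 5.92 in controls, and Ls174 treated libraries at 8.21 to 10.2 CPM against 0 to 5.90. The adjusted p was under 0.05 in 7 of 19 alternatives, with a range of 6.72e-08 to 0.158, and was above it without any 1 of 10 libraries, at log2 differences of 3.31 to 4.48 over all alternatives.

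ERP44 lay on opposite sides of its controls in the 2 lines, with every HepG2 treated library (36.4 to 39.2 CPM) above the controls (17.4 to 33.1 CPM) and every Ls174 treated library (18.9 to 26.3 CPM) below them (37.9 to 49.7 CPM). In HepG2 its log2 fold change of 0.46 (SE 0.32) passed no threshold. The difference of the responses was 1.34 on the log2 scale (SE 0.41), with an adjusted p of 0.17 in edgeR, so it did not pass the adjusted threshold. None of the 10 chaperones had groups apart in opposite directions in the 2 lines. The share of all genes with this pattern was not counted, so nothing is read from it for ERP44 or for the chaperones.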

How the results depend on the processing

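Among the summary values, the count of 8 members lower in Ls174 at the study's thresholds and the Ls174 median stayed within the set limits under every alternative, at 7 to 8 and −1.22 to −1.11 when a library was left out. In HepG2 the count of 4 at these thresholds ranged from 2 to 4 when a library was left out, with 2 without control 2 and without each HME library. The HepG2 count after adjustment was 0 and became 2 in DESeq2, 1 with all 12 libraries in 1 fit and 2 with every gene that had a count. The shares of all genes under these alternatives are not given here. The HepG2 median of −0.44 moved to −0.57 with scaling by library size only and to −0.6 with at least 10 counts in every library, a filter that drops DNAJB9. The Ls174 count after adjustment was 5, became 8 with every gene that had a count, and ranged from 0 to 8 when a library was left out. With the replicate block it was 0. Same-numbered control and HME libraries did not deviate together (r of −0.15, 0.073 and −0.116 in HepG2 and −0.039, 0.006 and −0.06 in Ls174), so the numbers were not taken to pair the samples. The count of members that differed between lines ranged from 1 to 5 when a library was left out, and after adjustment it was 1 in DESeq2. For untreated cells, 2 members differed in DESeq2 and 2 with the GC offset (HSPA5 and PDIA6), and 1 to 3 when a library was left out. SDF2L1 ranged from −0.6 to 0.41 there when a HepG2 or Ls174 library was left out, with the −0.6 reached without HepG2 control 2. The HSP90B1 share difference in HepG2 ranged from −5.93 to 0.26 percentage points when a library was left out and was positive without control 2. In Ls174 it ranged from −6.11 to −0.33. No member passed the alternative limit of 10% for the next most used 3′ region, so that alternative gave no value. Except where named, the cause was not tested. With the replicate block the adjusted p in edgeR was 0.17 for UGGT1 in Ls174, and 0.0817 for ERN1, 0.0945 for TRIB3 and 0.0501 for HSPA1A in HepG2. DNAJB9 had 3 counts in its lowest library.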

Other observations

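The pattern of the controls that stood apart was set beside the base composition of the 3′ regions, a comparison made after the data were seen. Over all tested genes of a line, the log2 excess of the control that stood apart had r = 0.24 with the GC content of the leading region in HepG2 (11343 genes) and 0.10 in Ls174 (11319 genes). Since the points are genes of the same libraries and not replicates, no p is given. In HepG2 control 2 the median excess went from −0.48 in the fifth of genes with the lowest GC content to 0.38 in that with the highest, and in Ls174 control 1 from −0.21 to 0.09.

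Among the chaperones, SDF2L1, HYOU1, PDIA4 and CALR have regions of 50 to 52.2% GC and were in excess in both controls. DNAJB9 has 32.0% GC and CANX 36.5%, and both were in deficit. HSP90B1 goes against this order, with 37.5% GC and an excess of 0.83 and 0.33 in HepG2 and Ls174 (log2). PDIA6 has the same rounded GC content as CANX (36.5%), at 0.03 and −0.02, while CANX stood at −1.05 and −0.24.

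With an offset per library fitted to GC content, the 4 HepG2 members past the study's thresholds remained past them, at −1.08 (SE 0.39) for HSP90B1, −1.23 (SE 0.37) for PDIA4, −0.97 (SE 0.38) for HYOU1 and −1.28 (SE 0.43) for SDF2L1. With this offset the thresholds called 10.8% of all HepG2 genes lower. Leaving out HepG2 control 2, without the offset, lost the calls for HSP90B1 and HYOU1, at −0.52 each. In Ls174 the same 8 members were lower at the study's thresholds, beside 8.0% of all genes. The same 5 were lower after adjustment in edgeR, beside 0.848%, with HSP90B1 at −2.03 and HSPA5 at −1.42. What set these 2 control libraries apart was not tested.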
